A study of Mus musculus with 4 samples.

Results

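The 9 genes studied here mark radial glia and neural stem cells and were followed across cultured mouse neural stem cells. They were chosen by gene name as Fabp7, Vim, Nes, Slc1a3, Msi2, Hopx, Msi1, Prom1 and Gfap. All 9 were found among the 55487 gene IDs of the expression table, and 8 of them reached 10 transcripts per 1000000 transcripts (TPM, a level already scaled for transcript length and library size) in at least 1 library. Fabp7 was among the 11 most abundant genes in every library, whereas Gfap stayed below 1 TPM in all of them. None of the 8 differed by 2-fold or more between any of the libraries compared, and since only 3.21% to 4.1% of all genes did so in a comparison, this does not set them apart. The widest spread was that of Hopx and Prom1, both lowest in the Trp53 KO library. Prom1 reached 10 TPM only in the control, its highest library.

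The cells were primary neural stem cells from the dorsal forebrain of mouse embryos, grown as floating neurospheres with bFGF and EGF. Each of the 4 groups had 1 library. The control was a Tut1f/f culture (both Tut1 alleles flanked by loxP sites) given empty lipid nanoparticles (LNP). The library labelled Tut1 KO came from the same genotype given LNP that carried mRNA for Cre recombinase, an enzyme that removes DNA between loxP sites. The Trp53 KO library came from p53f/f cells and the double KO library from Tut1f/f;p53f/f cells, both given Cre-LNP, and the Cre-LNP treatment lasted 3 days. No group was free of floxed alleles. The Tut1f/f and p53f/f mice were separate lines, and the double-floxed mice were bred by crossing them. How many embryos each culture was made from was not stated. Particle content differed between the control and the 3 other groups and cannot be told apart from the deletion labels in any comparison with the control. TUT1 is an enzyme that adds uridines to U6 small nuclear RNA, a core RNA of the spliceosome, and the study asked whether its loss harms neural stem cells and whether p53 takes part in this.

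Radial glia are the dividing cells that line the ventricles of the embryonic brain, span the cortical wall and give rise to neurons, glia and the stem cells of the adult. They are recognised by intermediate filament proteins (nestin and vimentin, later also GFAP), by a fatty acid binding protein, by a glutamate transporter that astrocytes also use, by the membrane protein prominin and by RNA-binding proteins of the Musashi family. GFAP is a late marker in the mouse, typical of astrocytes and adult stem cells, while Fabp7 and Nes are early markers.

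The promoters of 4 of the genes are shown because they carry the extremes of the data: Fabp7 had the highest level, Gfap the lowest, Slc1a3 was highest in the double KO library, and Hopx had the widest spread. Each stretch runs from 250 to 51 bases before a RefSeq transcription start (GRCm38.p6), counted back from the start, and holds no annotated exon. It is written 5′ to 3′ on the strand of the gene, and capitals mark matches to any of 5 motifs on either strand. Fabp7 lies on the plus strand at chr10:57784673-57784872, Slc1a3 on the minus strand at chr15:8710858-8711057, Hopx on the minus strand at chr5:77115174-77115373 and Gfap on the minus strand at chr11:102897251-102897450.
Fabp7: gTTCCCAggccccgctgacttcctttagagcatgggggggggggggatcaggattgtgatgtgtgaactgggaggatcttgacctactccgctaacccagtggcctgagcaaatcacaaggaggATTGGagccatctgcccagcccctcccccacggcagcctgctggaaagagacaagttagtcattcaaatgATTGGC
Slc1a3: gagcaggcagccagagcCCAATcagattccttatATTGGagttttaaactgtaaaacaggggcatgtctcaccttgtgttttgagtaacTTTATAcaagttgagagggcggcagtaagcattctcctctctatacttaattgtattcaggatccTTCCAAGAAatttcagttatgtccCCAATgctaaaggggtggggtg
Hopx: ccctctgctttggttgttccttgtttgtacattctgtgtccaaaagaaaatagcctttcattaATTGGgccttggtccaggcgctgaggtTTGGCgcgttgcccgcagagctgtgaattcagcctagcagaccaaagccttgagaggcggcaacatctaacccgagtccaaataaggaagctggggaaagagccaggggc
Gfap: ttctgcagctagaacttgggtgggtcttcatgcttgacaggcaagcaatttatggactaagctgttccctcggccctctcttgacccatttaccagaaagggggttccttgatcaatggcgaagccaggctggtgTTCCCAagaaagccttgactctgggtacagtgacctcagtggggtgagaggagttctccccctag

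The motifs were TGGGAA (RBPJ, the DNA-binding partner of Notch), TTCNNNGAA (STAT), TTGGC (an arm of an NFI site), CCAAT and TATAAA, all searched over 250 bases. Of 32851 promoter windows of this length, 21.6% held the RBPJ letters, 7.0% the STAT letters, 41.5% the NFI letters, 33.8% CCAAT and 12.4% TATAAA. The CCAAT and TTGGC letters can overlap, as they do in Fabp7, where TTGGC begins at -55. Slc1a3 held the STAT letters at -96 and TATAAA at -161, and the Fabp7 and Gfap windows each held 1 RBPJ match, at -249 and -115. Hopx held CCAAT at -187 and TTGGC at -160. CpG pairs numbered 4 in Fabp7, 2 in Slc1a3, 8 in Hopx and 2 in Gfap, against a median of 6 over all windows. Hopx has another RefSeq start, whose window (not shown, as it holds an annotated exon) had 18 CpG pairs, a CCAAT match at -188 and no TTGGC. These matches describe letters in a window and are not evidence of binding. Windows were found for 8 of the 9 genes.

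The labels were checked first. Tut1 stood at 12.16 TPM in the control and 29.76 in the library labelled Tut1 KO, so it was not lower there. In the Trp53 KO it was at 12.50 TPM, and the double KO had 13.70. By the study's account the deletion removes an exon from the Tut1 mRNA and was measured on that exon by qPCR and long reads. A gene-level value can include reads from the remaining exons and so does not check the deletion, and directions for Tut1 are drawn here from the labels. Trp53 was lower in the Trp53 KO and double KO (39.66 and 41.95 TPM) than elsewhere (119.87 in the control, 100.38 with the Tut1 KO label). Xist reached 188.05 TPM with the Tut1 KO label and 204.04 with the Trp53 KO label but 0.01 in the other two, which instead held the Y-linked gene Ddx3y (24.43 TPM in the control, 25.74 in the double KO). A pattern that pairs the control with the double KO hence cannot be told apart from this difference between cultures. Both comparisons of the Tut1 label below, and both of the Trp53 label, also set a library with Xist against one with Ddx3y. Neither label can be told apart from the culture in them. The order of the Xist and Ddx3y libraries is reversed between the comparisons of each label, so a reversed sign cannot be told apart from it either. Only the double KO less the control compares libraries alike in these genes. The depth of the libraries is unknown, since TPM keeps no read count, and since no group was replicated no value below has an error or a test.

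Fabp7, which encodes the brain fatty acid binding protein of radial glia (chr10:57784881-57788450, plus strand), was at 9440.7, 8094.9, 7901.7 and 9393.9 TPM in the control, the library labelled Tut1 KO, the Trp53 KO and the double KO. It ranked between 7 and 11 among all genes. The highest of its levels was 1.19 times the lowest, and the control and double KO stood above the other libraries. Its relative Fabp5, a fatty acid binding protein found in many tissues, was instead highest in the Trp53 KO, at 2784.2 TPM against 1706.7, 1758.5 and 1966.0 in the control, the library labelled Tut1 KO and the double KO. The ratio of Fabp7 to Fabp5 in TPM was accordingly 2.84 in the Trp53 KO and between 4.60 and 5.53 in the other libraries.

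Vim encodes vimentin, the main intermediate filament of radial glia (chr2:13573927-13582826, plus strand), and was at 1874.5, 2039.1, 1692.8 and 1741.5 TPM in the control, the library labelled Tut1 KO, the Trp53 KO and the double KO. It was the only one of the 8 genes that was highest in the library labelled Tut1 KO. Nes encodes nestin, the filament protein after which these cells are often identified (chr3:87971078-87980451, plus strand), and was at 417.1, 391.6, 336.7 and 312.7 TPM in the same order. Both libraries with a Trp53 deletion label lay below both without one for Vim and for Nes. The TPM ratio of Nes to Vim was 0.223 in the control and between 0.180 and 0.199 elsewhere.

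Gfap, the filament gene of astrocytes (chr11:102887336-102900912, minus strand), was at 0.13, 0.97, 0.24 and 0.69 TPM in the control, the library labelled Tut1 KO, the Trp53 KO and the double KO. Both libraries with a Tut1 deletion label were above both without one. All of these values lie below the minimum of 10 TPM set for comparisons, and at levels this low its difference in log2(TPM + pseudocount) for the library labelled Tut1 KO against the control ranged from 0.22 to 2.18 with the pseudocount, so no change was called.

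Slc1a3 encodes the glutamate transporter GLAST, present on radial glia and astrocytes (chr15:8634124-8710764, minus strand). Its levels were 305.3, 289.5, 251.8 and 346.8 TPM in the control, the library labelled Tut1 KO, the Trp53 KO and the double KO. The double KO was the highest library and the Trp53 KO the lowest. Slc1a2, the transporter that takes over in mature astrocytes, was only at 6.03 to 7.65 TPM, so that Slc1a3 exceeded it by 37.8 to 49.4 times within each library.

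The Musashi genes encode RNA-binding proteins that control translation in stem cells. Msi2 (chr11:88339382-88718513, minus strand) was at 70.50, 53.67, 57.44 and 62.86 TPM in the control, the library labelled Tut1 KO, the Trp53 KO and the double KO. Msi1 (chr5:115429599-115455698, plus strand) was at 24.08, 23.54, 23.26 and 26.24 TPM and varied the least of the 8 genes. Msi2 exceeded Msi1 in every library, by 2.93 times in the control and 2.28 to 2.47 times elsewhere. The control was the highest library for Msi2 and the double KO for Msi1.

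Hopx encodes a small homeodomain protein without DNA binding that marks outer radial glia and quiescent stem cells (chr5:77086988-77115121, minus strand). It was at 53.85, 49.70, 28.12 and 40.59 TPM in the control, the library labelled Tut1 KO, the Trp53 KO and the double KO. Prom1 encodes prominin, a protein of membrane protrusions (chr5:43993620-44102032, minus strand), and was at 10.56, 7.56, 5.69 and 8.73 TPM. For both genes the control was the highest library and the Trp53 KO the lowest. The exons of both are overlapped by an antisense gene, but Hopxos and Gm16401 were at most 0.21 and 0.07 TPM.

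**Figure D1:**
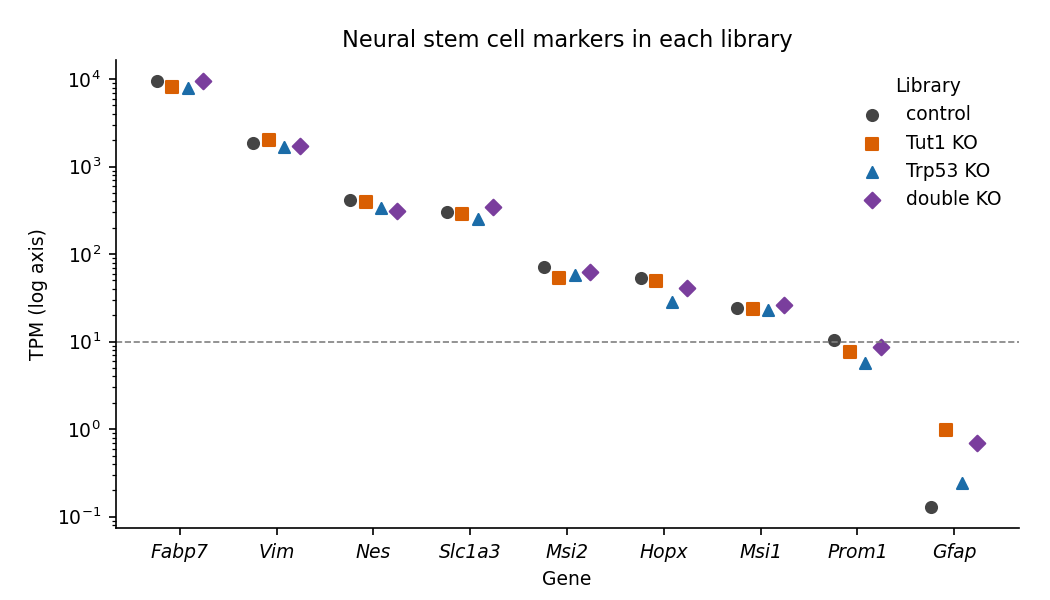
TPM (log axis) of each of the 9 genes in the 4 libraries, 1 point per library and no error bars because each group had 1 library. The dashed line marks 10 TPM; Fabp7 lies at 7901.7 to 9440.7, Prom1 straddles the line and Gfap lies below 1 in every library.

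The spread of each gene over the 4 libraries was measured as the highest less the lowest log2(TPM + 1). It was 0.91 for Hopx, 0.79 for Prom1, 0.46 for Slc1a3, 0.41 for Nes, 0.39 for Msi2, 0.27 for Vim, 0.26 for Fabp7 and 0.17 for Msi1. The median of the 8 was 0.40, close to the 0.39 of all 9314 genes with at least 10 TPM in a library, of which 864 (9.28%) spread by 1 or more, against 0 of the 8. Hopx had a wider spread than 89.3% of these genes and Prom1 than 86.2%, while Msi1 exceeded only 9.7%. Prom1 entered these genes only through the control, its highest library, so its place among them depends on that.

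The widest spreads depended on single libraries. Without the Trp53 KO library the spread of Hopx was 0.40 and that of Prom1 0.43, and without the control that of Prom1 was 0.54. That of Slc1a3 was 0.26 without the Trp53 KO library and 0.28 without the double KO, and that of Msi2 was 0.22 without the control. The spreads of Vim (0.15 without the library labelled Tut1 KO) and Msi1 (0.05 without the double KO) narrowed by less than the 0.14 that counted as a move. Leaving out a library can only narrow a spread or leave it unchanged.

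**Figure D2:**
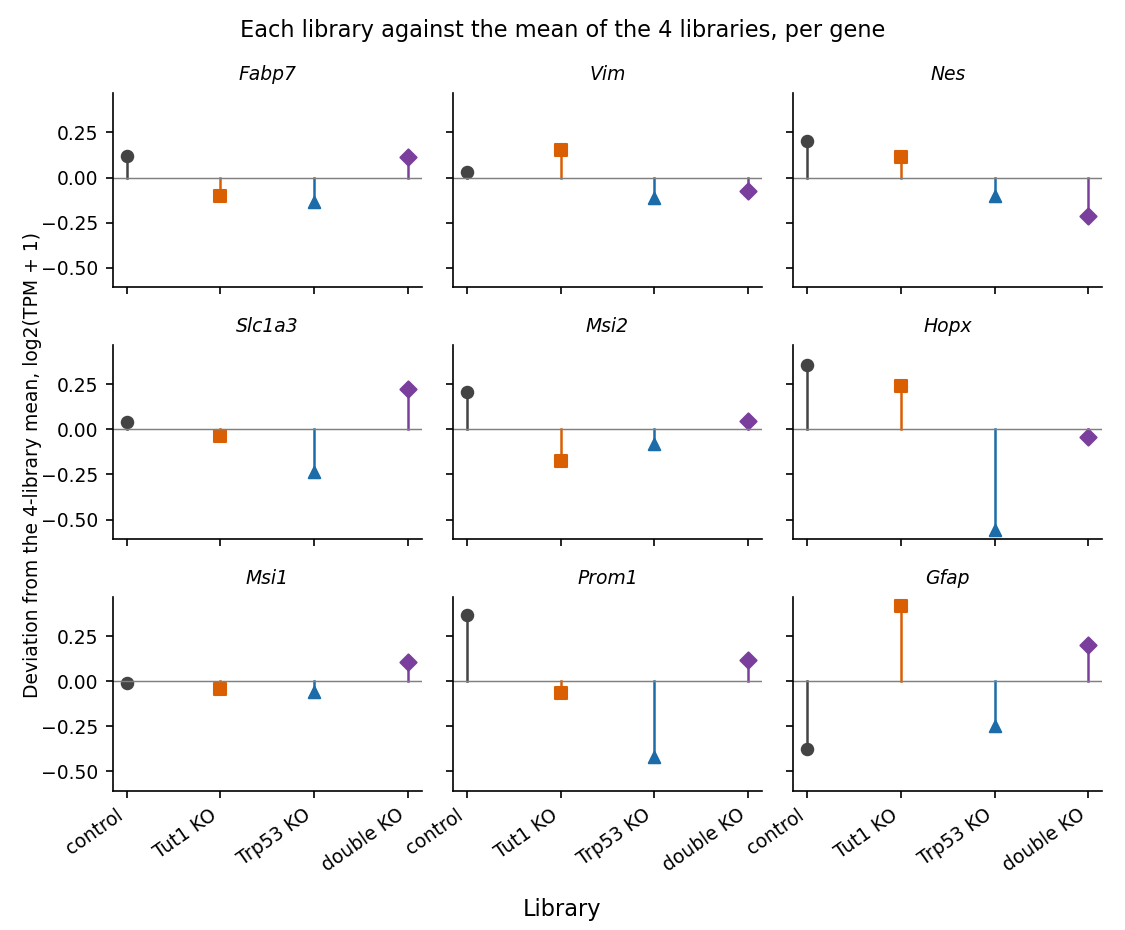
Deviation of each library from the mean of the 4 libraries in log2(TPM + 1), with 1 panel per gene and 1 point per library. The Trp53 KO library deviates by -0.56 for Hopx and -0.42 for Prom1; with TPM as deposited, for Fabp7, Slc1a3, Msi2, Msi1 and Prom1 the control and double KO both lie above the other libraries.

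The 8 genes followed a pair of arrangements. Fabp7, Slc1a3, Msi2, Msi1 and Prom1 had both the control and the double KO above both other libraries, which 28.5% of the 9314 genes were, and the opposite arrangement (11.5% of genes) held for none. Vim, Nes and Hopx were higher in both libraries without a Trp53 deletion label than in both with one, as were 13.4% of genes, and none was lower in both (14.2% of genes). With TPM as deposited none of the 8 separated the libraries by the Tut1 label, either higher (17.1% of genes) or lower (15.3%) without it. The control was the highest library for 5 of the 8 (29.6% of all genes) and the Trp53 KO the lowest for 6 (24.3%). These arrangements are those of TPM as deposited. Vim, Nes and Hopx kept theirs under every scaling and correction tried, and of the other 5 genes only Prom1 did. With library medians set equal, Slc1a3 and Msi1 instead had both libraries with a Tut1 deletion label above both without one, as did Msi1 under quantile normalization and Slc1a3 with a correction for GC content and length. Under quantile normalization Fabp7 was at the same level in the Trp53 KO and the control (a difference of 0.00), and with the correction for GC content and length Msi2 was arranged by the Trp53 label.

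The comparison of the Tut1 label with Trp53 present was the library labelled Tut1 KO less the control. Among all genes compared, 4.1% differed by at least 2-fold, and 0 of the 8 did. The largest differences in log2(TPM + 1) were -0.43 for Prom1 and -0.39 for Msi2, and Vim alone was higher (0.12). Fabp7 differed by -0.22, while Hopx, Nes, Slc1a3 and Msi1 lay between -0.11 and -0.03. The sign of small differences depended on the scaling: with library medians set equal Slc1a3 was at 0.01, Msi1 at 0.06 and Nes at 0. The median of the 8 was -0.10, against -0.09 for all genes, of which 60.7% were below 0.

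The same label without Trp53 was read from the double KO less the Trp53 KO library, which shares no library with the first comparison. Here 3.21% of all genes passed 2-fold and none of the 7 genes compared did, Prom1 being below 10 TPM in both libraries. Hopx was higher by 0.51 and Slc1a3 by 0.46, above 95.7% and 94.5% of all genes, and Fabp7 was higher by 0.25. Msi1, Msi2 and Vim were higher by 0.17, 0.13 and 0.04, and Nes was lower (-0.11). The median of the 8 genes, Prom1 (0.54) included, was 0.21 against 0.05 for all genes, of which 58.7% were above 0. With TPM as deposited, the direction under the Tut1 label was the same in the 2 comparisons for Vim and Nes only. With library medians set equal it was the same for Vim, Slc1a3 and Msi1, while Nes was at 0 in the first comparison. The difference between the 2 comparisons was not tested, and the order of the Xist and Ddx3y libraries is reversed between them.

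The Trp53 label with Tut1 present was read from the Trp53 KO less the control. Of all genes, 3.83% passed 2-fold, and 0 of the 8. All 8 were lower in the Trp53 KO, as were 59.9% of all genes, although under quantile normalization Fabp7 (0.00) and Msi1 (0.01) were not. The median was -0.28 for the 8 and -0.05 for all genes. Hopx came nearest to the threshold at -0.91, or 0.52 times the control level, followed by Prom1 at -0.79. Only 2.1% of genes lay below Hopx and 2.8% below Prom1. Prom1 passed the minimum of 10 TPM only through the control, its highest library, so its rank and any call depend on that. Nes, Msi2, Slc1a3 and Fabp7 differed by -0.31, -0.29, -0.28 and -0.26, and Vim and Msi1 by -0.15 and -0.05. At a threshold of 1.5-fold the 2 genes Hopx and Prom1 were lower, where 8.42% of all genes passed and 4.33% were lower.

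With the Tut1 label in both libraries, the double KO less the library labelled Tut1 KO gave another reading of the Trp53 label from separate libraries. There 3.9% of all genes passed 2-fold and 0 of 7 did. Nes was again lower (-0.32), as were Hopx (-0.29) and Vim (-0.23). Slc1a3 (0.26), Msi2 (0.22), Fabp7 (0.21), Prom1 (0.19) and Msi1 (0.15) were higher, the reverse of the comparison before, and the median of the 8 was 0.17 against 0.09 for all genes. It was 0.08 with library medians set equal, 0.07 under quantile normalization and 0.02 with a correction for GC content and length, where Msi2 was at -0.02. Nes, at 0.81 and 0.80 times, was thus the gene with the most similar size in both readings. The order of the Xist and Ddx3y libraries is reversed between these readings, and a reversed sign cannot be told apart from it.

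The double KO less the control, with 3.31% of all genes past 2-fold and 0 of the 8, left Nes (-0.41) and Hopx (-0.40) lowest and Slc1a3 (0.18) highest. Fabp7 differed by -0.01, though by 0.24 under quantile normalization. The median of the 8 was -0.13 against 0.00 for all genes. The 3 comparisons with the control share that library.

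**Figure D3:**
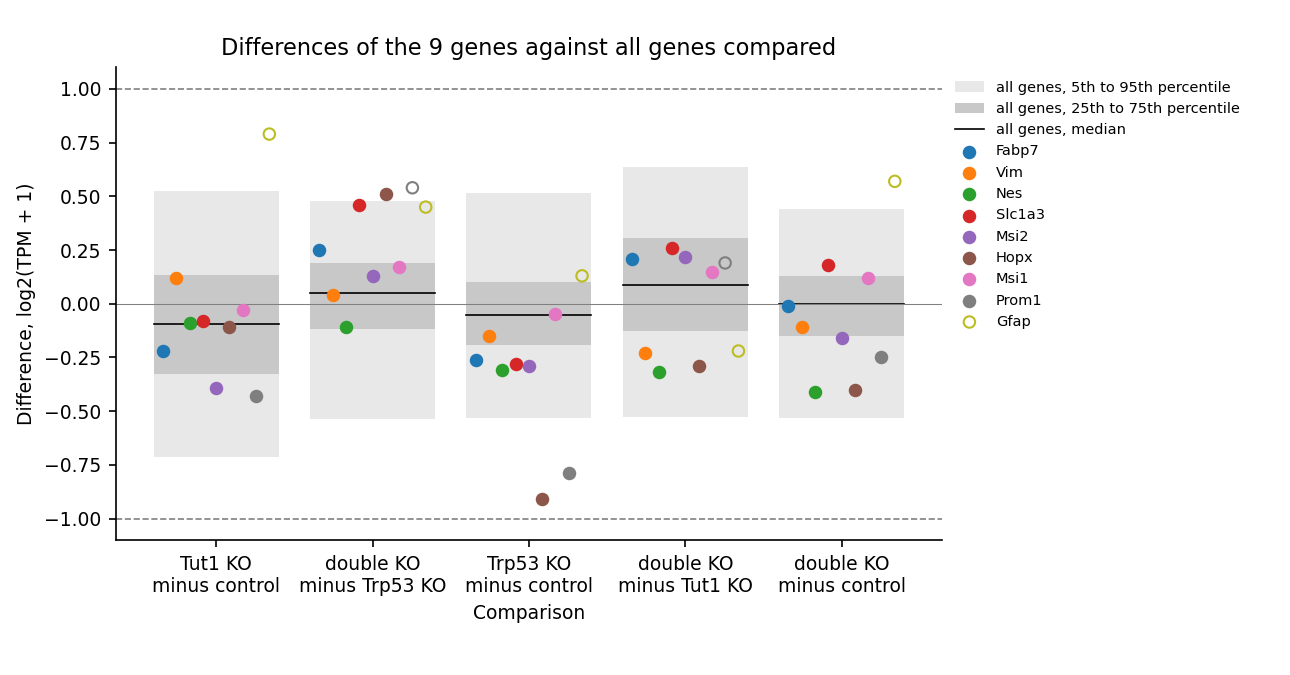
Difference in log2(TPM + 1) of each gene in the 5 comparisons, over bands that hold the middle 50% and 90% of all genes compared. Open points were below 10 TPM in both libraries and the dashed lines mark 2-fold; Hopx (-0.91) and Prom1 (-0.79) in the Trp53 KO less the control are the compared points nearest to a line.

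Differences between libraries moved with the GC content of transcripts. Across protein-coding genes, Spearman's rho between GC content of the longest transcript and the difference was 0.431 over 8250 genes for the library labelled Tut1 KO less the control and -0.488 over 8185 genes for the double KO less that library. All genes of a comparison come from the same pair of libraries, so rho is a description with no test. In the other comparisons rho lay between -0.218 and 0.169. With the length of that transcript, rho was -0.365 for the library labelled Tut1 KO less the control and 0.315 for the double KO less that library. It lay between -0.222 and 0.127 in the others. Msi2 (42.3% GC, 6436 nucleotides) and Fabp7 (42.6%, 880 nucleotides) are poorer in GC than the median of 49.7%. So are Slc1a3 (45.7%), Prom1 (45.8%), Hopx (46.4%) and Vim (46.5%), while Msi1 (57.9%) and Nes (55.5%) are richer. With a correction for GC content and length the difference of the library labelled Tut1 KO from the control became -0.13 for Msi2, -0.29 for Fabp7, -0.17 for Msi1 and -0.11 for Nes. Hopx kept a difference of -0.96 and Prom1 of -0.76 in the Trp53 KO less the control, and Nes kept -0.29 and -0.26 in the 2 readings of the Trp53 label.

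**Figure D4:**
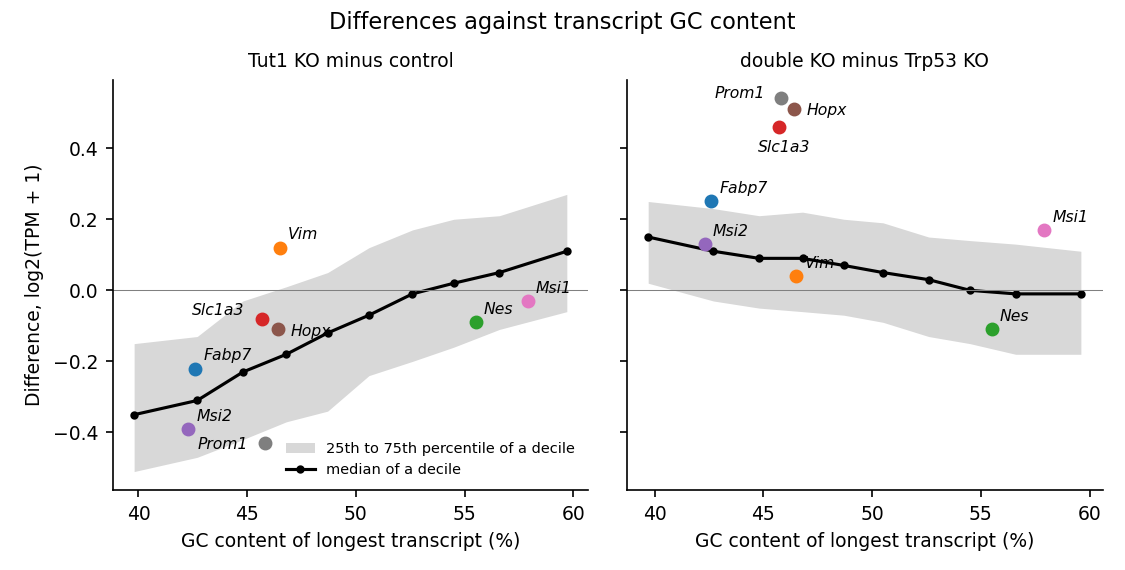
Difference in log2(TPM + 1) against the GC content of the longest transcript for the 2 comparisons of the Tut1 label. The line and band give the median and the middle 50% of genes in each GC decile, rising from -0.35 to 0.11 on the left and falling from 0.15 to -0.01 on the right; the points are the 8 genes, with Gfap left out for its low level.

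Other genes of the same functions were counted in lists. Of 22 further neural stem cell genes, including the transcription factors Sox2 and Sox9, 18 or 19 reached the 10 TPM needed for a comparison and 0 passed 2-fold in any, where 3.21% to 4.1% of all genes did. Their median difference was -0.16 for the library labelled Tut1 KO less the control and 0.11 for the double KO less the Trp53 KO, beside -0.10 and 0.21 for the markers. It was -0.03 for the Trp53 KO less the control, beside -0.28 for the markers. Sox2 was at 369.8, 292.8, 324.3 and 385.0 TPM in the control, the library labelled Tut1 KO, the Trp53 KO and the double KO, highest in the same pair of libraries as Fabp7. Ptprz1, a receptor phosphatase of radial glia, was at 380.6, 258.8, 289.2 and 332.7 TPM. All 22 had a higher level in the double KO than in the library labelled Tut1 KO, as did 60.3% of all genes, with a median of 0.26 against 0.09 for all genes. Of the 8 markers, 5 were higher there and Vim, Nes and Hopx lower.

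Among 14 Notch pathway genes 10 were compared and none passed 2-fold (3.21% to 4.1% of all genes). Hes5, a repressor that Notch switches on in radial glia, was at 39.59, 59.80, 36.82 and 66.47 TPM in the control, the library labelled Tut1 KO, the Trp53 KO and the double KO, thus higher in both libraries with the Tut1 deletion label (0.58 and 0.84 in the 2 comparisons). An opposite-strand transcript (Gm20421, 1.49 to 4.84 TPM) overlaps Hes5, and the strand setting of the counting was not stated. Hes1, another such repressor, was highest in the Trp53 KO (104.5 TPM) and at 86.67 to 92.05 TPM in the other libraries. The receptor Notch1 was at 26.55 to 29.00 TPM.

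Of 15 genes of the JAK-STAT and NFI pathways that drive Gfap and other astrocyte genes, 11 or 12 were compared and Nfix alone passed 2-fold (3.21% to 4.1% of all genes). Nfix encodes a nuclear factor I protein and was at 26.88, 4.17, 10.61 and 32.37 TPM in the control, the library labelled Tut1 KO, the Trp53 KO and the double KO. It was lower by 2-fold or more in the library labelled Tut1 KO (-2.43) and in the Trp53 KO (-1.26) than in the control, and the double KO exceeded the Trp53 KO (1.52) and the library labelled Tut1 KO (2.69). Its relatives Nfia (35.29 to 39.44 TPM) and Nfib (61.45 to 81.18 TPM) did not pass. Stat3 was at 66.26 to 77.97 TPM, while the receptor gene Osmr was at most 0.13.

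Of 11 RNA-binding and Numb genes linked to the Musashi proteins, 6 or 7 were compared and only Igf2bp2 passed 2-fold (3.21% to 4.1% of all genes). It was higher by 1.12 in the Trp53 KO (20.04 TPM) than in the control (8.66 TPM, below the 10 TPM minimum). With the Tut1 KO label it was at 7.58 TPM, and the double KO held 11.49. Elavl1, the RNA-binding protein HuR, came close to the threshold (-0.98) with 50.55 TPM under the Tut1 KO label against 100.3 in the control, and stood at 81.47 and 73.36 TPM in the Trp53 KO and double KO. The gene Ccl25 (14.88 to 21.07 TPM) overlaps Elavl1 on the opposite strand, and the strand setting was not stated. Numb, a target of Msi1, was at 15.62 to 21.82 TPM. Only 3 of the 11 filament and lamin relatives of Nes and Vim, 1 of the 7 relatives of Fabp7 and 2 of the 5 relatives of Slc1a3 were abundant enough to be compared, and none of these passed 2-fold, a count too small to read against the 3.21% to 4.1% of all genes. The most abundant relative in each was Lmnb1, a nuclear lamin (258.2 to 369.1 TPM), Fabp5, and Slc1a4, an amino acid transporter (45.98 to 51.91 TPM).

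Markers of other cell types were summed in every library. Those of microglia (at most 0.75 TPM over 6 genes, 4 of them at 0 in all libraries), endothelium (at most 1.54 over 6), mural and mesenchymal cells (at most 4.66 over 8) and ependyma (2.83 to 5.86 over 4) were low. The ependymal gene Foxj1 was at 4.86, 5.38, 2.45 and 2.69 TPM in the control, the library labelled Tut1 KO, the Trp53 KO and the double KO. These values lie below the 10 TPM set for comparisons. They were lower with a Trp53 deletion label, as were Vim, Nes and Hopx, but the rest of the ependymal list was not. Rsph1 was at 0.23, 0.41, 0.38 and 0.70 TPM in the same order, Ccdc153 at most 0.59 and Tmem212 at 0. The part of Foxj1 in the differences of Vim, Nes and Hopx was not tested. Astrocyte markers summed to 299.0 to 325.3 TPM over 8 genes, led by Aldoc (163.0 to 186.0), Aldh1l1 (76.13 to 90.75) and Gja1 (40.48 to 47.63). Slc1a2 (6.03 to 7.65) and S100b (2.38 to 5.21) were lower. Aqp4, Gjb6 and Agt were below 1 TPM in every library, as was Gfap. Neuron and intermediate progenitor markers summed to 167.3 to 242.1 TPM over 10 genes, of which Map2 gave 141.0 to 208.1. Tubb3 (10.98 to 12.64), Snap25 (3.38 to 10.51), Rbfox3 (4.0 to 5.18), Dcx (2.42 to 3.13) and Syt1 (1.72 to 2.72) were lower. Eomes, Neurog2, Neurod1 and Stmn2 were below 1 TPM in every library. Oligodendrocyte lineage markers summed to 1565 to 1765 TPM over 8 genes, mainly Olig1 and Olig2, with the myelin gene Mog below 1. Fewer cells of a type and less RNA per cell cannot be told apart in such bulk libraries.

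**Figure D5:**
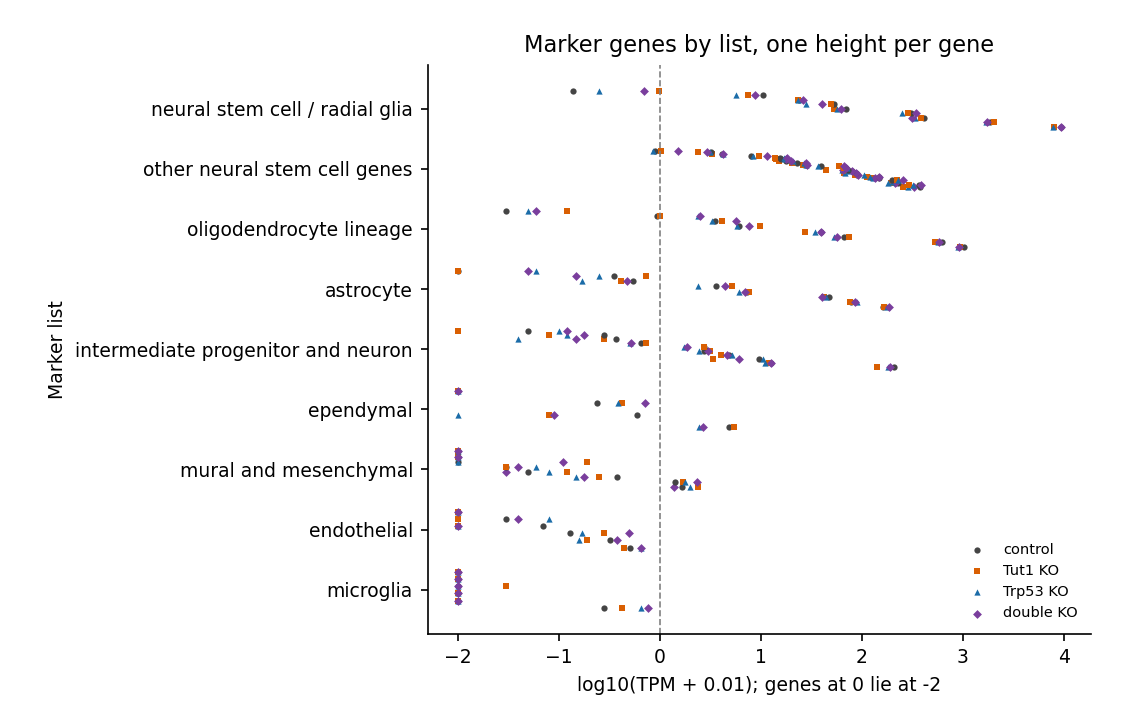
Levels of the marker genes of 9 lists as log10(TPM + 0.01), with each gene at its own height and 1 point per library. The dashed line marks 1 TPM; Fabp7, of the neural stem cell list, reaches the highest level, and microglial, endothelial and mural genes lie mostly left of the line.

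Of the 9 markers of the labelled cell type, 8 exceeded 5 TPM in every library. Sums over the 9 were 12196.7, 10950.5, 10297.8 and 11934.0 TPM in the control, the library labelled Tut1 KO, the Trp53 KO and the double KO, or 1.22%, 1.095%, 1.03% and 1.194% of all TPM, most of it Fabp7. The sums of oligodendrocyte lineage markers were lowest in the Trp53 KO and highest in the control, as were the sums of the 9, and their part in the differences was not tested.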

How the data were processed

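Gene expression of 4 libraries, 1 per group, was taken from a table of TPM values for 55487 Ensembl gene IDs deposited by the authors. The submitters' processing notes name Trimmomatic, HISAT2, StringTie and the build mm10, without versions. For this table, annotation release, strand setting and pooling are not given in the sources used here. The labels name a stranded mRNA kit for Illumina, but long reads are described in the series text, and which of them gave the TPM is not stated. TPM keeps no depth and values above 0 went down to 1e-06, so counts, intervals and floors could not be derived.

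Differences were computed on log2(TPM + 1), which understates changes of low genes, with Python 3.11.15, numpy 2.4.6, pandas 2.3.3 and scipy 1.17.1. A gene was compared with at least 10 TPM in at least 1 of the libraries compared (of the 4 for spreads and arrangements), and called at 2-fold or more, a difference of at least 1. List medians used genes with at least 1 TPM in a library. With 1 library per group no test was run. The scripts were tested on simulated data. GC content, length and exon overlap came from GENCODE M21, which held 55141 of the IDs, and promoters from RefSeq (GRCm38.p6). For the alternatives, a value without a test was held to have moved when it changed by more than the median absolute deviation of all genes in that comparison, and a spread over the libraries when it changed by more than the smallest of these deviations.

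The 9 genes, the lists and the thresholds were chosen with earlier results of these data known. Genes named were the 9, Tut1, Trp53, Xist, Ddx3y and, from each list, those past 2-fold and otherwise the most abundant. Hes5, Elavl1, Lmna, Snap25, Fabp5, other list members and the genes with levels most like Hopx and Prom1 were named after their values were seen. The rule reserved the latter for genes that spread by at least 1, which none did. Alternatives were other pseudocounts (0.1 and 5), TPM minimums, scalings, folds, a correction for GC content and length, a restricted gene set, and leaving out each library.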

Additional observations from a re-analysis of the deposited data

Results flagged for a closer look

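Nfix was the 1 gene of the lists whose difference under the Tut1 label passed 2-fold in opposite directions with and without Trp53. It was lower in the library labelled Tut1 KO (4.17 TPM) than in the control (26.88 TPM), a difference of -2.43 in log2(TPM + 1), and in the double KO (32.37 TPM) it exceeded the Trp53 KO (10.61 TPM), a difference of 1.52. The first difference less the second was -3.95, and it was not tested. Among 9314 genes, 62 passed in opposite directions in this way, and of the 69 list genes with at least 10 TPM in a library only Nfix did. The libraries low in Nfix were those with Xist, so the label and the culture cannot be told apart. Genes on the opposite strand that overlap its exons were at most 0.23 TPM (Lyl1) and 0.13 TPM (G430095P16Rik).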

How the results depend on the processing

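The medians of the markers kept their direction and moved by less than the spread of all genes under every alternative run. That of the library labelled Tut1 KO less the control shrank from -0.10 to -0.01 with library medians set equal. No compared marker passed 2-fold under any alternative. Differences of single markers changed sign by more than that spread for Fabp7 in the double KO less the control (-0.01, and 0.24 under quantile normalization) and for Msi2 in the double KO less the library labelled Tut1 KO (0.22, and -0.02 with the correction for GC content and length), and the cause was not tested. The number of genes past 2-fold was, for the library labelled Tut1 KO less the control, the double KO less the Trp53 KO, the Trp53 KO less the control, the double KO less the library labelled Tut1 KO and the double KO less the control, 370, 288, 347, 349 and 299 as reported. It was 693, 564, 644, 678 and 619 with a minimum of 1 TPM, and the same with no minimum, since a difference of 1 on this scale needs at least 1 TPM. It was 1094, 708, 762, 955 and 700 at 1.5-fold, where 2 markers (Hopx and Prom1) passed in the Trp53 KO less the control. It was 211, 160, 204, 222 and 179 among the 7455 autosomal protein-coding genes without shared exons, fewer genes by construction. With a pseudocount of 5 the difference of Prom1 in the Trp53 KO less the control was -0.54. No paired analysis was possible because each group had 1 library. Unknown depth limits every value at low TPM, Gfap above all.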

Other observations

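The genes whose levels over the 4 libraries were most like those of the most variable markers were looked up after their values were seen, by the distance between centred log2(TPM + 1) values over 4 libraries. Nearest to Hopx was Lpo, a peroxidase gene, at 20.94, 18.48, 11.26 and 16.30 TPM in the control, the library labelled Tut1 KO, the Trp53 KO and the double KO, at a distance of 0.103. Tbc1d16 (0.136) and Sec16a (0.162) followed, and 21 genes lay within 0.25. Nearest to Prom1 among named genes was Ctnna2, a catenin of neural cell contacts, at 14.55, 10.64, 8.46 and 12.06 TPM and a distance of 0.062, followed by B3gnt5 (0.093) and Sema4c (0.13), with 65 genes within 0.25. Each of the other 6 markers compared had between 687 and 3339 genes within that distance.

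The ratio of the nuclear lamin genes Lmnb1 to Lmna, in TPM, was 17.2, 8.36, 19.0 and 22.5 in the control, the library labelled Tut1 KO, the Trp53 KO and the double KO. Lmna was at 30.89 TPM in the library labelled Tut1 KO and at 15.93 to 21.50 in the others. Snap25, a gene of synaptic vesicle release, was at 9.65, 3.38, 10.51 and 6.06 TPM in the same order.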
